A study of Caenorhabditis elegans with 4 samples.

Results

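The chaperone and heat shock genes of *Caenorhabditis elegans* were examined for binding of ces-1 in whole L4 larvae. They are the Ensembl protein-coding genes named hsp-, dnj- or cct- followed by a number, without dnj-11, and hsf-1, enpl-1, sti-1 and cdc-37. The rule gave 62 of 19985 protein-coding genes: 22 heat shock protein (HSP) genes, 28 J-domain genes, 8 CCT genes and 4 others. Of the HSP genes, 13 encode small heat shock proteins and 9 encode large ones. The rule used names alone and no measured value.

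All libraries came from 1 strain, OP174, which has the unc-119(ed3) mutation and the integrated transgene wgIs174, a ces-1 copy tagged with TY1, EGFP and FLAG together with unc-119 as a rescue. Animals of both sexes were pooled, and 4 biological replicates of this 1 group were sequenced after chromatin immunoprecipitation (ChIP-seq), with no second condition. The signal is that of the tagged copy in the whole animal, so the cells it came from cannot be told apart. The labels give fragments of 150 to 350 bp for replicates 1 and 2. Replicates 3 and 4 have microtip sonication and another worm source in their labels.

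Molecular chaperones help other proteins to fold and keep unfolded chains from aggregating. HSP70 proteins bind and release clients in an ATP cycle that J-domain proteins start and exchange factors such as HSP110 reset, HSP90 completes the folding of many signalling proteins, and the ring-shaped CCT chaperonin folds actin and tubulin. After heat shock, HSF-1 binds heat shock elements, inverted repeats of GAA, and induces many of these genes. CES-1 is a Snail-type zinc finger protein known for its role in the death of particular neurons, and Snail proteins bind the E-box CAGGTG.

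A gene was counted as bound where a peak summit lay no more than 1000 bp before, or 200 bp after, a transcript start (5′ end) of that gene. Reproducible peaks were the 1033 of the submitters' IDR list (irreproducible discovery rate, a filter on agreement between replicates), and weaker regions were taken from the pooled list of 25493 regions. Each library was given as its 30000 strongest regions. Each region has the authors' signal score, whose scale is not stated and which was used only within a list, together with its rank (1 is the strongest). For a gene without an IDR peak, the signal and ranks given are those of the strongest region in its window in each list. These regions can be different sites in different libraries.

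IDR peaks stood at 11 of the 62 genes (17.7%), against 2.67% of all protein-coding genes. They were hsp-1, hsp-60, hsp-90, hsp-110 and hsp-25 among the HSP genes, dnj-9, dnj-22, dnj-25 and dnj-28 among the J-domain genes, and cct-1 and cct-8 of the chaperonin. The genome around 6 of these summits is shown because 4 of them hold a heat shock element core within 50 bp and the other 2 are strong peaks that do not. Each window is 101 bp of ce11 (WBcel235, RefSeq sequence), plus strand, centred on the IDR summit. The windows are chrIV:17278559-17278659 for hsp-1, chrV:14685731-14685831 for hsp-90, chrII:8185171-8185271 for cct-1, chrIV:1094273-1094373 for cct-8, chrIII:1619107-1619207 for hsp-60 and chrV:20739572-20739672 for dnj-25. Capitals mark matches to GAANNTTC and, at the start of the hsp-90 window, to CAGGTG.
hsp-1: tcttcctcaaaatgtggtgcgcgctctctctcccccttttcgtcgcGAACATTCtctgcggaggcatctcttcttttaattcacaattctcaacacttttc
hsp-90: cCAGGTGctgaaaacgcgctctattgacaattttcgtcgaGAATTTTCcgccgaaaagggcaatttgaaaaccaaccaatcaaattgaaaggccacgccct
cct-1: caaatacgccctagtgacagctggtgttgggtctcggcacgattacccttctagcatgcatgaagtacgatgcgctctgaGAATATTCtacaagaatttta
cct-8: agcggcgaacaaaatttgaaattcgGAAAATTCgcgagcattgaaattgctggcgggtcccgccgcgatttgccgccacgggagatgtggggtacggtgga
hsp-60: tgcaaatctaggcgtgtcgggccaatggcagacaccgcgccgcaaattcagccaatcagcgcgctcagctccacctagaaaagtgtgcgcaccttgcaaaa
dnj-25: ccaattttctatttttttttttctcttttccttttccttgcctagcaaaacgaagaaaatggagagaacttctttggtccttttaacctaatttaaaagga

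The core GAANNTTC, 2 head-to-head GAA units, was present within 50 bp of 4 of the 11 summits (36.4%), those of hsp-1, hsp-90, cct-1 and cct-8. It was present at 5.52% of all 1033 IDR peaks, at 5.63% of the 426 IDR peaks in promoter windows of protein-coding genes, and at 7.16% of 24333 pooled regions without an IDR peak. In the hsp-1 window the match GAACATTC began 4 bp before the summit, and in the hsp-90 window GAATTTTC began 10 bp before it. The match in cct-8, GAAAATTC, began 25 bp before the summit, and the one in cct-1, GAATATTC, began 30 bp after it. The same core occurred in 3 of the 28 strongest regions of members that had a pooled region and no IDR peak (10.7%). Both strands were searched; the core reads the same on either.

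The tail-to-tail core TTCNNGAA was found within 50 bp of 0 of the 11 summits, against 3.97% of IDR peaks. Within 100 bp it was found at 4 of 11 (36.4%), dnj-28, cct-1, hsp-110 and hsp-90, against 9.68% of IDR peaks, and GAANNTTC at 5 of 11 (45.5%), against 11.3%. The Snail E-box CAGGTG was present within 50 bp at hsp-90 alone (9.09% of 11; 0.968% of IDR peaks), where it began 49 bp before the summit. The general E-box CANNTG, which includes CAGGTG, was present at 3 of 11 summits (27.3%), dnj-9, cct-1 and hsp-90, against 31.6% of IDR peaks. These matches describe the letters in the windows; base composition differed too, with a median GC content of 45.5% at the 11 summits, 41.6% at all IDR peaks and 33.7% at the weaker pooled regions, and its part in the shares was not tested.

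Among large HSP genes, 4 of 9 had an IDR peak (44.4%), against 2.67% of all protein-coding genes. The strongest peak of all members was at hsp-1, the constitutive cytosolic HSP70, at chrIV:17278437-17278780, with a pooled signal of 114.4 and its summit 350 bp upstream of the gene. The overlapping regions ranked 222, 295, 32 and 112 in replicates 1 to 4. It ranked high in all 4 libraries, and their summits lay within 33 bp of the pooled one. A small non-coding gene, F26D10.23, begins 196 bp before the summit, and a second IDR peak of signal 57.5 lay 137 bp past the end of hsp-1.

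At hsp-60, the mitochondrial chaperonin, the peak chrIII:1618985-1619328 had a signal of 92.8 and lay 585 bp upstream. It lay 228 bp upstream of the divergent gene Y22D7AL.10, which RefSeq annotates as the mitochondrial 10 kDa heat shock protein, the lid of the same folding machine. The genes of this chaperonin and its lid share the interval that holds the peak, which the list does not assign to either. The ranks were 115, 313, 2137 and 267 in replicates 1 to 4. Replicate 3 was the lowest of the 4.

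The peak at hsp-90, the cytosolic HSP90 gene, was chrV:14685609-14685952 with a signal of 64.2. Its summit lay 379 bp upstream of an inner 5′ end at position 14686160, within an intron of the longest transcript and 863 bp past the outermost 5′ end, and 296 bp upstream of the divergent gene C47E8.4. The ranks were 436, 438 and 315 in replicates 1, 2 and 4, and no region of replicate 3 overlapped it. At hsp-110, the nucleotide exchange factor of HSP70, the peak chrIII:8447022-8447365 had a signal of 49.5 and lay 285 bp upstream, with the proteasome subunit gene rpn-3 at 159 bp on the other side. Its ranks were 1274, 232 and 7928 in replicates 1, 2 and 4, with no region in replicate 3, so the libraries ordered it very differently.

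The other large HSP genes had weaker regions or none in the pooled list. hsp-6, the mitochondrial HSP70, had a pooled signal of 23.5, 244 bp upstream. Its strongest regions ranked 1726, 4360 and 6362 in replicates 2 to 4. Their summits differed, at 241 bp upstream, 12 bp downstream and 464 bp upstream. The inducible cytosolic gene hsp-70 had 25.4, and ranked 16089, 5035 and 22942 in replicates 1, 2 and 4. The endoplasmic reticulum HSP70 genes hsp-3 and hsp-4, the BiP homologues, stood at 12.9 and at no pooled region. The best rank in any library was 5040 for hsp-3 and 14790 for hsp-4.

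Of the 13 small HSP genes, 1 had an IDR peak (7.69%), against 2.67% of all protein-coding genes. A pooled region stood at 4 (30.8%), against 36.7%. The 13 include the 4 repeat copies of hsp-16 described below. Of 3 small HSP genes with other names, outside the members, 3 had a pooled region and 0 an IDR peak. The member with the IDR peak was hsp-25. Its peak was chrX:6037782-6038125, signal 48.0, in an intron of the gene and 253 bp upstream of an inner 5′ end. Regions overlapping it ranked 1501, 1505 and 693 in replicates 1, 2 and 4, and replicate 3 had none. The strongest promoter regions of hsp-25 in replicates 2 and 3 were other sites, 961 and 760 bp upstream, ranked 367 and 552. This gene thus had a top-2000 region in all 4 libraries, but not at 1 shared site.

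The hsp-16 genes, the classic heat-inducible small HSPs of the worm, had no IDR peak. The 4 genes of the inverted pair on chromosome V, 2 copies of hsp-16.1 and 2 of hsp-16.48 in Ensembl (RefSeq calls the second copies hsp-16.11 and hsp-16.49), had no region in any library. The copies chrV:9087293-9088617 and chrV:9089280-9090604 were identical over 1325 of 1325 bases, so reads inside them cannot be assigned to 1 copy, and the treatment of such reads by the submitters is not given in the sources. Within 1000 bp of the pair, the pooled and IDR lists had 0 regions, as did replicates 2 to 4, and replicate 1 had 1. The other divergent pair, hsp-16.2 and hsp-16.41, lies elsewhere on chromosome V. hsp-16.41 had a pooled signal of 12.4, and replicate 1 had a region ranked 6112 that lay in the windows of both genes.

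Among the 28 J-domain genes, 4 had an IDR peak (14.3%), against 2.67% of all protein-coding genes, and 17 a pooled region (60.7%), against 36.7%. The strongest was dnj-25, the worm auxilin, which removes clathrin coats together with HSP70. Its peak chrV:20739562-20739674 had a signal of 110.3 and its summit lay 147 bp downstream of an inner 5′ end, in an intron and 4724 bp past the outermost one. The ranks of 379, 138, 141 and 90 in replicates 1 to 4 placed it well within the top 1000 of each library, and no other gene's window held it. At 113 bp it was the narrowest of the 11 peaks, the others being 344 bp wide.

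**Figure D1:**
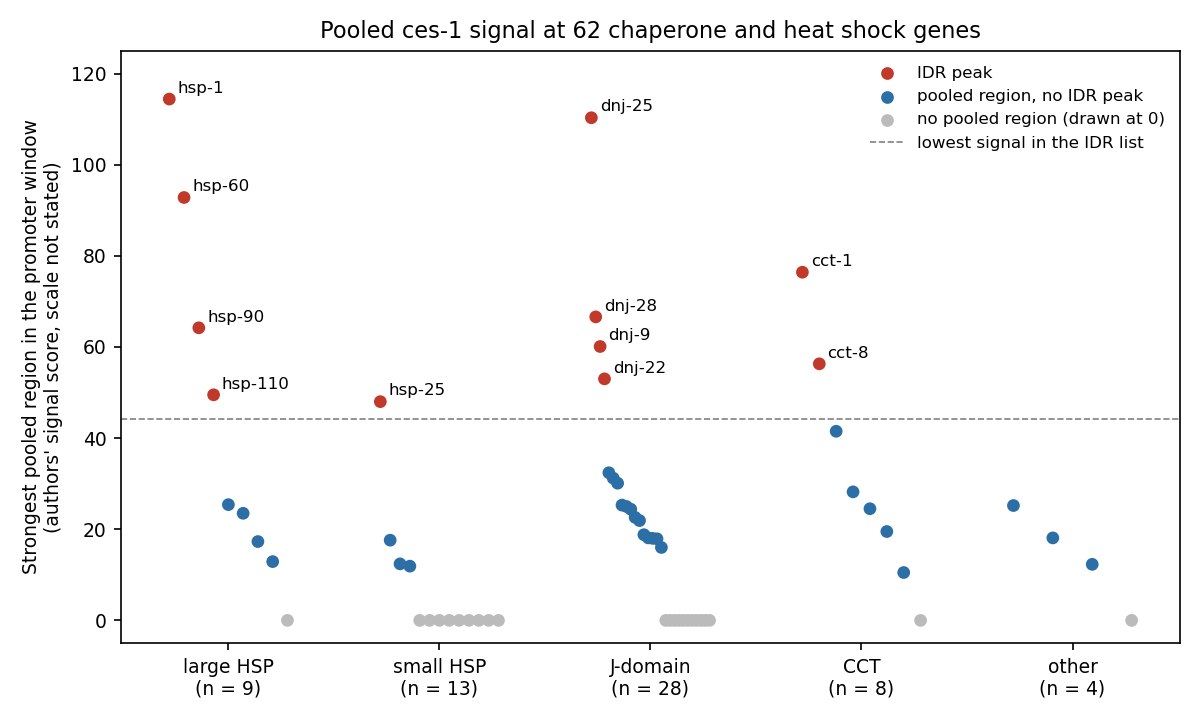
Strongest pooled region in the promoter window of each of the 62 genes, by class, as the authors' signal score; red points have an IDR peak, blue points do not, and grey points at 0 have no pooled region. The 11 red points lie between 48.0 and 114.4, and the highest gene without an IDR peak is cct-7 at 41.5, below the lowest signal in the IDR list, 44.2.

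The peak of dnj-28, on chromosome I, had a signal of 66.6 and lay 248 bp upstream, in an interval shared with supr-1. It ranked 1014 and 231 in replicates 1 and 2, and 7003 and 4211 in replicates 3 and 4. The peak of dnj-9 had a signal of 60.1, lay 218 bp upstream in no other gene's window, and ranked 1224, 1152, 9469 and 307. A second IDR peak of signal 58.0 lay in an intron of dnj-9, outside the window. The peak of dnj-22 had a signal of 53.0, lay 179 bp upstream and 60 bp from natc-1, and ranked 2301, 769, 5181 and 1819. Replicate 3 ranked the region weakest at all 3 genes.

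The next J-domain genes by pooled signal were all below the lowest IDR signal, 44.2. dnj-1, with 32.4, had no region in replicate 3 and ranked 9397, 2097 and 1115 in replicates 1, 2 and 4. dnj-16, with 31.2, was in the top 2000 of every library (1680, 1848, 731 and 1911), with strongest summits between 37 bp upstream and 133 bp downstream. dnj-19, with 30.1, ranked 1435, 9742, 2576 and 1447. dnj-14 and dnj-7 had 25.3 and 25.0. dnj-27 had no pooled region and was high in a single library, with rank 287 in replicate 3, rank 15965 in replicate 1 and no region elsewhere; it falls outside the rule for named genes and was chosen after its values were seen.

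The 8 CCT genes encode the subunits of 1 complex, and 7 of them had a pooled region (87.5%), against 36.7% of all protein-coding genes. IDR peaks stood at 2 (25%), against 2.67%. cct-1 had a peak at chrII:8185049-8185392 with a signal of 76.4, 222 bp upstream and 198 bp from the divergent gene mig-5, a Dishevelled homologue. It ranked 535, 195 and 497 in replicates 1, 2 and 4 and had no region in replicate 3. cct-8 had a peak at chrIV:1094151-1094494 with a signal of 56.3, 403 bp upstream and 218 bp from the thioredoxin domain gene Y55F3AR.2, with ranks of 423, 842, 2257 and 341. Both were within the top 1000 of replicates 1, 2 and 4.

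The other CCT subunits ran from just below the IDR list to nothing. cct-7 had a pooled signal of 41.5 and ranked 2457, 1308, 20288 and 15036 in replicates 1 to 4. cct-6 had 28.2, cct-5 24.5, cct-4 19.5 and cct-2 10.5, and cct-3 had no region in any library. Reproducible peaks were seen at 2 of the 8 genes of a complex whose subunits work together.

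hsf-1, the heat shock factor gene, had no IDR peak. Its pooled signal was 12.3, 130 bp upstream, and it ranked 11163, 2646 and 11164 in replicates 2 to 4 with no region in replicate 1. Of the 3 others, sti-1, the HSP70 to HSP90 adaptor, had 25.2 and ranked 1242, 12769, 18592 and 9279. enpl-1, the endoplasmic reticulum HSP90, had 18.1, and cdc-37, the kinase adaptor of HSP90, had no pooled region.

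**Figure D2:**
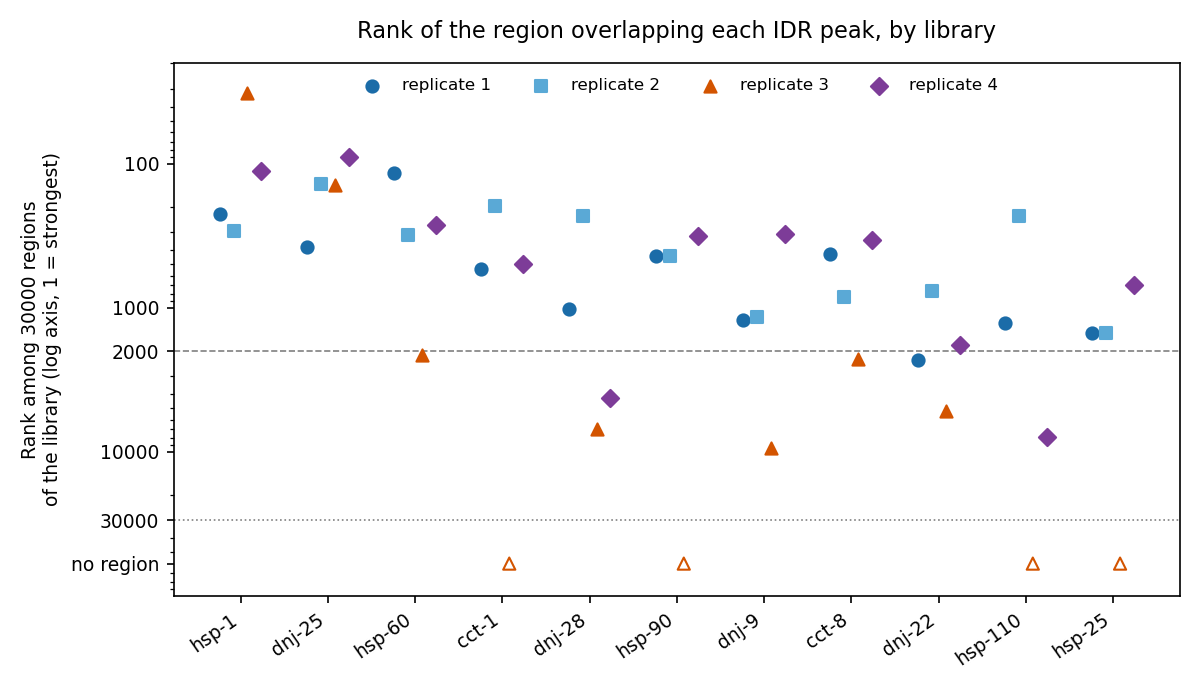
Rank of the region that overlaps each of the 11 IDR peaks in each library, on a log axis with the strongest at the top; dashed and dotted lines mark ranks 2000 and 30000, and open symbols mean no overlapping region. Replicates 1, 2 and 4 overlap all 11 peaks and replicate 3 overlaps 7. The peaks of hsp-1 and dnj-25 alone are above rank 2000 in every library.

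The libraries differed in how many of these peaks they held. Regions of replicates 1, 2 and 4 overlapped 11 of 11, and of replicate 3, 7 of 11; over all IDR peaks the shares were 98.6%, 99.2%, 97.3% and 87.3%. Among top-2000 regions the counts in replicates 1 to 4 were 10, 11, 2 and 9 of 11, against 80.1%, 86.1%, 50.5% and 70.2% of all IDR peaks. Every library overlapped 7 of the 11, against 83.4% of all IDR peaks. Every library did so with a top-2000 region at 2 of the 11, hsp-1 and dnj-25, against 29.5% of all IDR peaks. By both counts over all 4 libraries the share of the 11 was below that of all IDR peaks. Without replicate 3 the top-2000 count was 8, and the same share over all IDR peaks was not computed.

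Each library's 2000 strongest regions gave the same comparison without the IDR step. In replicate 1 they reached 16 of 62 members (25.8%), against 4.96% of all protein-coding genes. In replicate 2 they reached 18 (29.0%), against 5.52%. In replicate 3 they reached 5 (8.06%), against 3.78%, and in replicate 4, 12 (19.4%), against 4.25%. The share was above the background in all 4 libraries, with a mean of 20.6% ± 9.25 (SD, n = 4) beside 4.63% ± 0.766. The replicates with a stated size range averaged 27.4% and the microtip replicates 13.7%, beside 5.24% and 4.02% of all protein-coding genes. The 2 microtip replicates differed from each other, with 8.06% in replicate 3 and 19.4% in replicate 4. The part of the preparation in the difference between the 2 pairs was not tested.

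**Figure D3:**
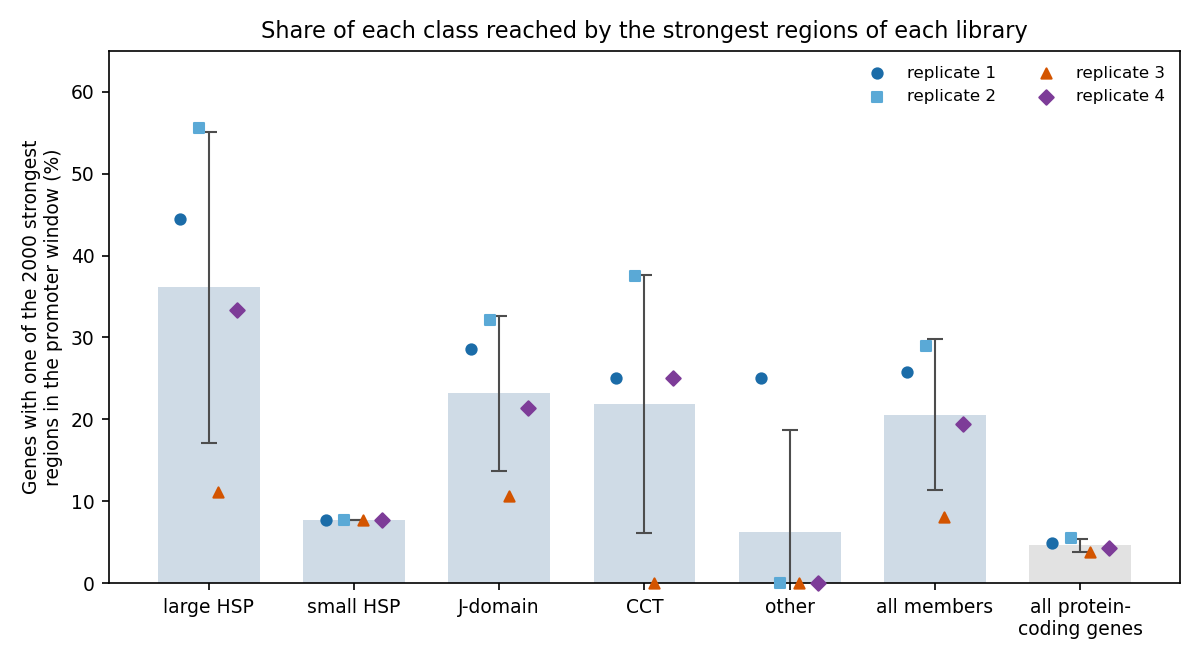
Percentage of each class with one of the 2000 strongest regions of a library in the promoter window; bars are means over 4 libraries, error bars are SD and points are the libraries. Large HSP genes average 36.1% and small HSP genes 7.69%, against 4.63% of all protein-coding genes. Replicate 3 is the lowest library for all members together, at 8.06%.

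By class, these means were 19.3% ± 7.76 for HSP, 23.2% ± 9.45 for J-domain and 21.9% ± 15.7 for CCT genes (SD, n = 4). The share of all protein-coding genes was 4.63% ± 0.766. The 3 class means differed by less than the SD between libraries within any of the classes. Taken within each library, J-domain minus HSP was 3.9 ± 1.86 percentage points and above 0 in 4 of 4 libraries, and CCT minus HSP was 2.56 ± 8.42 and above 0 in 3 of 4. The order depended on the number of regions taken: with the 1000 strongest, the mean was 15.9% for HSP, 8.93% for J-domain and 18.8% for CCT genes, against 2.35% of all protein-coding genes. The contrast within the HSP class was wider, with 36.1% ± 19.0 for the large and 7.69% ± 0 for the small genes, where the 1 small gene in each library was hsp-25. In replicate 3 that contrast came down to 1 gene of 9 against 1 of 13. The 13 include the 4 repeat copies of hsp-16, where reads cannot be assigned to 1 copy. The contrast was not recomputed under other settings.

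Of the 62 genes, 39 (62.9%) had a pooled region, against 36.7%, and with absent regions counted lowest the median member had a signal of 17.7, while the median protein-coding gene had no region. A region of every library lay in the window of 13 (21%), against 10.3% of all protein-coding genes. Of these, 9 had an IDR peak, and cct-7, dnj-16, dnj-19 and sti-1 did not. No region of any library was found at 7 (11.3%), against 22% of all protein-coding genes: the 4 repeat copies of hsp-16, hsp-12.1, cct-3 and dnj-2. No member without a window peak had an IDR summit in its gene body, and 7 had one within 5 kb of it, the nearest being hsp-12.3 at 127 bp. The same counts over all protein-coding genes were not made, so these cannot be called high or low.

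Signals of the 11 peaks ran from 48.0 to 114.4, and 7 of the 11 were above the median of the IDR list, 59.2. Summits lay 147 to 585 bp from the member's 5′ end, with a median of 253 bp, 10 upstream and 1 downstream. The window itself reaches 1000 bp upstream and 200 bp downstream, so it favours upstream summits and limits the distance. None lay in a coding exon, 8 were intergenic and 3 intronic. These positions were not counted over all IDR peaks, so they cannot be called particular to the 11. Another protein-coding gene's window held the same summit at 7 of the 11. The same share over all IDR peaks was not computed, so sharing cannot be called particular to these peaks. Among the genes whose windows held the summit, a gene other than the member was nearer at 8, so 3 peaks, those of dnj-9, dnj-25 and dnj-28, were nearest to the member itself. The nearer gene was a small non-coding one at hsp-1, hsp-25 and hsp-110. At hsp-1 and hsp-25 no other protein-coding gene's window held the summit. Counted by the nearest gene alone, 3 of 62 members had a peak (4.84%), against 1.69% of all protein-coding genes counted the same way.

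**Figure D4:**
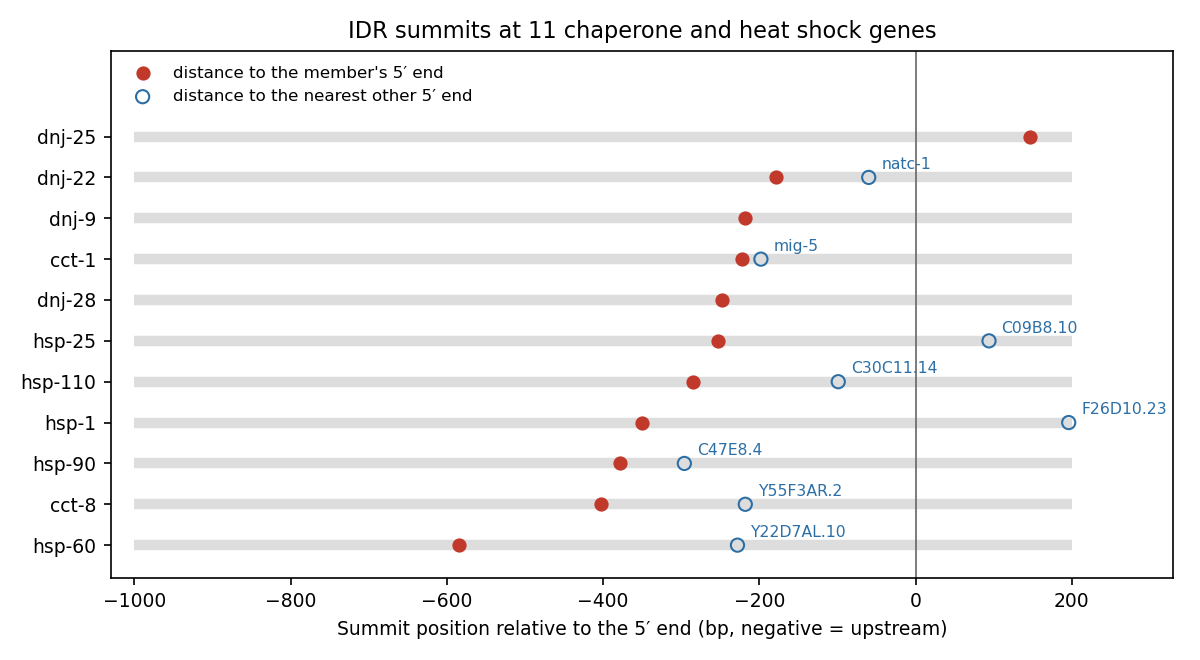
Position of the 11 IDR summits relative to the member's 5′ end (red) and to the nearest other gene's 5′ end where that is closer (blue open circles, with its name); the grey bar is the promoter window and negative values are upstream. All red points but that of dnj-25 lie upstream, and 8 summits are closer to another gene.

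Genes that work with these chaperones under other names were listed as 39 co-chaperone and stress-response genes. IDR peaks stood at 4 of them (10.3%), against 2.67% of all protein-coding genes, and pooled regions at 24 (61.5%), against 36.7%. Of 10 co-chaperones of HSP70 or HSP90, 3 had an IDR peak: ahsa-1, the activator of the HSP90 ATPase, with 64.9, bag-1, an exchange factor of HSP70, with 46.6, and sgt-1 with 45.6. The prefoldin gene pfd-1, whose complex hands clients to CCT, had 49.5. Of these 4 summits, bag-1 alone was nearest to the listed gene.

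The genes of the unfolded protein responses and of folding in the endoplasmic reticulum had no IDR peak. With 2.67% of all protein-coding genes holding one, so few genes would mostly have none. Pooled regions stood at 5 of 6 endoplasmic reticulum folding genes, at 2 of 4 genes of the endoplasmic reticulum response and at 2 of 4 of the mitochondrial one. The share over all protein-coding genes was 36.7%. ubl-5 of the mitochondrial response had a pooled signal of 39.9 and ranked 975, 940, 3386 and 451, the endoplasmic reticulum genes crt-1 (calreticulin) and pdi-2 (a disulfide isomerase) had 23.3 each. Among the co-chaperones without an IDR peak, the phosphatase gene pph-5 was highest, with 20.2. None of the 3 genes for regulators of HSF-1 (hsb-1, ddl-1 and ddl-2) had a pooled region, a number too small to set against that share.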

How the data were processed

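Peak lists of 4 ChIP-seq replicates, a pooled list and an IDR list were taken in ce11 from the files the authors deposited, in the narrowPeak layout of 10 columns. The deposited signal score has no stated scale; for the peak caller, IDR threshold and aligner, names and settings were not given in the sources used here. Every library was set against 1 control, per the file records; that control was not used here. Read depth is unknown, so no counting interval is given. Left out of the lists of the whole series were 0 columns.

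Genes were taken from Ensembl release 115 and products from RefSeq. Regions overlapped where they shared 1 bp or more. Scripts (Python 3.11.15, numpy 2.4.6, pandas 2.3.3, scipy 1.17.1, matplotlib 3.10.9) were tested on simulated data. No significance test was run over genes: counts and means stand beside the same over all protein-coding genes. Alternatives changed the window, the gene assigned, the 5′ ends used, the list, the number of top regions and the libraries.

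The members and lists were chosen with earlier results of these data known. The rule for named genes took hsf-1, all members with an IDR peak, the 10 others with the strongest pooled region, all cct and hsp-16 genes, the main large HSP genes, enpl-1, sti-1 and cdc-37, and from the list of 39 those with an IDR peak and 4 more.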

Additional observations from a re-analysis of the deposited data

Results flagged for a closer look

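Over the 4 libraries, 25 sets of values were examined for 1 library far from the others, and 2 were found. The sets were shares of classes, log10 ranks of members with a region in every library, and log10 ranks of regions overlapping IDR peaks. The last kind repeated ranks of the members, so fewer than 25 sets were separate. Chance gives about 1 in 20 separate sets. For hsp-90, the strongest promoter region ranked 436, 438 and 315 in replicates 1, 2 and 4 and 11881 in replicate 3, where it was another site, 839 bp upstream; the gap was 0.909 of the range of log10 ranks, above the limit of Dixon's test for 4 values. For dnj-16, the strongest promoter region ranked 731 in replicate 3 and 1680 to 1911 in the others, a gap of 0.866. The summits of these regions differed, at 133 bp downstream, 28 and 37 bp upstream and 84 bp downstream in replicates 1 to 4. Replicate 3 was thus the lowest library at hsp-90 and the highest at dnj-16.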

How the results depend on the processing

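The 11 members with an IDR peak became 3 by the nearest gene of any type, 5 by the nearest protein-coding gene (chosen after seeing the data), 7 among IDR peaks at or above the median signal, and 7 where a region of every library overlapped the peak. As shares these were 4.84%, 8.06%, 11.3% and 11.3%, against 1.69%, 2.04%, 1.22% and 2.16% of all protein-coding genes counted the same way. HSP genes went from 5 to 0, 2, 3 and 2 under these settings, and to 3 with the outermost 5′ end of each gene (also chosen after seeing the data). CCT genes went from 2 to 0, 0, 1 and 1, and the 4 J-domain genes stayed at 3 or 4. Pooled regions went from 39 to 25 by the nearest gene. That is from 62.9% against 36.7% of all protein-coding genes to 40.3% against 29.7%, a narrower contrast. Mean top-2000 shares became, with 5000 regions, 30.6% for all members, 33.0% for J-domain, 43.8% for CCT and 31.2% for the other genes, while the share of all protein-coding genes went from 4.63% to 10.1%. With 1000 regions J-domain genes fell to 8.93%, below HSP (15.9%) and CCT (18.8%), against 2.35% of all protein-coding genes. TTCNNGAA went from 0 to 36.4% of summits at 100 bp.

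Leaving out 1 library at a time, peaks with a top-2000 region in every remaining library numbered 2 to 8 over all members. They numbered 1 to 4 for HSP, 1 to 2 for J-domain and 0 to 2 for CCT, the higher value in each case without replicate 3. Over all members the shares were 3.23% to 12.9%, against 0.746% to 1.28% of all protein-coding genes, also highest without replicate 3. The other 71 of 95 recomputed counts and shares stayed within 1.5 times the count, 1 SD or, for motifs, the binomial interval. This number does not measure stability. Leaving out 1 library cannot move a mean share over 4 libraries by 1 SD, so those shares had to stay. Some counts were 0 under every setting. No paired analysis was possible because the labels give 1 group only. Depth, weaker regions beyond rank 30000 and reads in repeats limit what an absent region shows.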
